A study of Mus musculus with 2 samples.

Results

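The collagens, laminins and matrix glycoproteins are the secreted proteins that build basement membranes and the interstitial matrix. They were taken here as every listed gene whose symbol has the form of a collagen chain or a laminin chain, together with Nid1, Nid2, Hspg2, Agrn, Fn1, Sparc, Fbn1, Fbn2, Fbln1, Fbln2 and Postn. The rule uses names only and found 65 of the 20373 listed genes. They were divided into 23 basement membrane genes, 11 fibrillar collagens, 24 other collagens and 7 other matrix glycoproteins. RNA was sequenced from neurons and from neural progenitor cells (NPCs) of the mouse cerebral cortex at embryonic day 15.5, with 1 library of each. Both came from embryos that carried a Nestin-GFP and a DCX-mRFP transgene, bred from heterozygous Nestin-GFP and homozygous DCX-mRFP mice. Neurons were the sorted cells with both colours and NPCs the cells with green alone. Nes and Dcx, the genes named in the reporters, are among the markers read here, so those 2 markers are not independent of the sort. How many embryos were pooled is not given in the sources used here.

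The neuron library held 23312054 recovered reads and the NPC library 26346226. Levels are in counts per 1000000 (CPM) on a scale common to both libraries, where 1 CPM stands for 22.8 reads in neurons and 26.97 in NPCs. The comparison covers genes that reached 1 CPM in either library. It uses log2((neuron + 1)/(NPC + 1)), and a gene past 1 or -1 on this scale is called at least 2-fold apart. Folds printed for single genes are ratios of CPM without the added 1, and the ranges beside them are exact 95% Clopper-Pearson intervals of the reads, which cover counting error only. With 1 library per group there is no replicate check and no p-value. In sorted bulk RNA, fewer cells of a type and less RNA per cell cannot be told apart. All 12 neuron markers were higher in neurons by any amount and 5 by at least 2-fold, led in level by Dcx, Tubb3 and Mtap2, with sums of 12026.5 CPM in neurons and 7469 CPM in NPCs. Of 12 radial glia markers 10 were at least 2-fold lower in neurons, and the most abundant were Ptprz1, Vim and Nes (641.4, 196.7 and 189.5 CPM in neurons, and 436.4, 623.0 and 408.5 CPM in NPCs).

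A basement membrane is a thin sheet in which laminin trimers and a collagen IV network, bridged by nidogens and heparan sulphate proteoglycans, underlie cells. In the developing cortex one such sheet lies under the pia, where the end feet of radial glia attach, and others surround blood vessels. Breaks in the pial sheet are known to let neurons migrate out of the cortex. Fibrillar collagens form the cables of connective tissue, and fibronectin, fibrillins and fibulins form further fibres and their coats.

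Of the 65 genes, 47 reached 1 CPM in a library and 18 did not. In neurons 30 of the 47 (63.8%) were at least 2-fold lower and 0 were at least 2-fold higher. Over all 12693 genes past the same filter these shares were 6.73% lower and 3.85% higher. The median log2 ratio of the 47 was -1.41, against -0.0049 over all genes past the filter. Of the 47, 11 passed the filter through the NPC library alone and so had to be lower in neurons, and 9 of these are among the 30. Of the 36 that passed in both libraries 21 (58.3%) were at least 2-fold lower in neurons, against 5.77% of all 11984 such genes. With no filter the 30 stand against all 65 members, and the share over all 20373 listed genes was 4.19%. At least 2-fold lower in neurons were 14 of 18 basement membrane genes, 7 of 9 fibrillar collagens, 6 of 13 other collagens and 3 of 7 other glycoproteins. Among genes past the filter in both libraries these counts were 13 of 17, 3 of 5, 3 of 8 and 2 of 6. The median log2 ratios of the 4 classes were -1.74, -1.90, -0.60 and -0.68, and -1.71, -1.90, -0.41 and -0.46 among the genes past the filter in both libraries. Whether the classes differ was not tested.

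**Figure D1:**
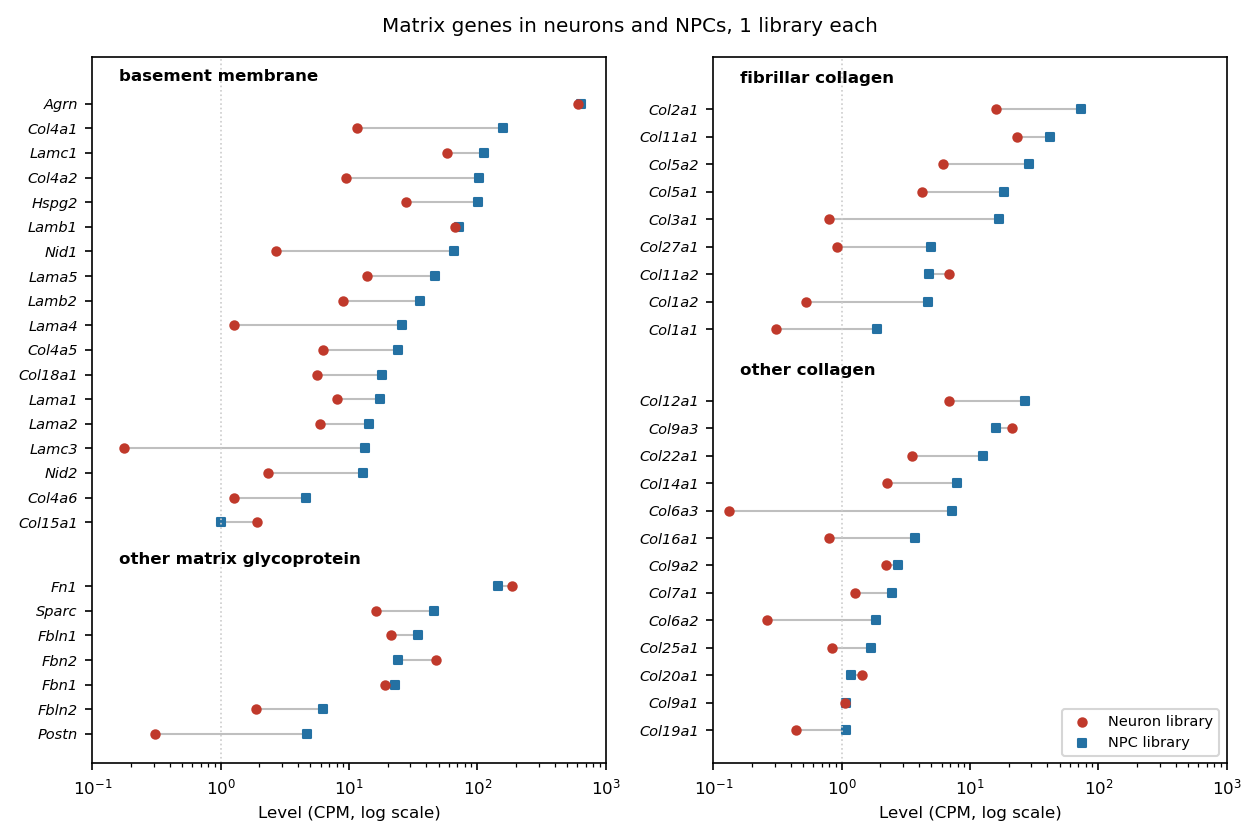
Level of each of the 47 genes that reached 1 CPM, in CPM on a log axis, with a circle for the neuron library and a square for the NPC library (1 library each, no error bars). Most pairs lie with neurons to the left, up to the gap of Lamc3 at 0.176 CPM in neurons and 13.3 CPM in NPCs, while Agrn and Lamb1 nearly coincide and Fbn2, Fn1, Col15a1, Col11a2, Col9a3 and Col20a1 lie with neurons to the right.

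Markers of other matrix-making cells were lower in neurons as well. Of 12 pericyte and mural markers, 11 passed the filter and 8 were at least 2-fold lower (5 of the 8 that passed in both libraries), with a median log2 ratio of -3.20 and summed levels of 30.3 CPM in neurons and 316.7 CPM in NPCs. The most abundant were Notch3 (13.5 CPM in neurons and 85.8 in NPCs), Abcc9 (2.81 and 61.5) and Pdgfrb (2.33 and 54.02). Smooth muscle genes of that list, Acta2, Tagln and Myh11, stood at 2.11, 1.84 and 2.90 CPM in neurons and 1.89, 1.78 and 2.93 CPM in NPCs. Endothelial markers were scarce in both, with 8 of the 9 genes past the filter at least 2-fold lower, a median of -1.33 and sums of 4.04 CPM in neurons and 26.7 CPM in NPCs over 14 genes. Since 8 of these 9 passed through the NPC library alone, their count and median were largely fixed by the filter, and the sums are the measure to read. Their most abundant members in NPCs were Kdr, Esam and Eng, at 0.439, 1.19 and 0.659 CPM in neurons and 4.82, 4.12 and 3.67 CPM in NPCs, and Ly6c1 was at 0 in both. Meningeal fibroblast markers summed to 6.15 CPM in neurons and 100.4 CPM in NPCs over 16 genes, with 5 of 7 past the filter at least 2-fold lower and a median of -1.41, where 5 of the 7 passed through the NPC library alone. Igf2 (2.02 and 46.8 CPM), Pdgfra (0.703 and 25.3) and Bgn (0.878 and 19.2) made up most of that sum, while the fibroblast proteoglycan genes Dcn and Lum were at 0.176 and 0.0443 CPM in neurons and 0.111 and 0.0369 CPM in NPCs, and Slc22a6 and Tcf21 were at 0 in both. Pdgfra is also in the oligodendrocyte lineage list, in which 5 of 6 genes past the filter were at least 2-fold lower (median -2.77, with 4 of the 6 past the filter through the NPC library alone, and sums of 14.05 CPM in neurons and 88.8 CPM in NPCs). The part of these cells in the matrix gene differences was not tested.

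**Figure D2:**
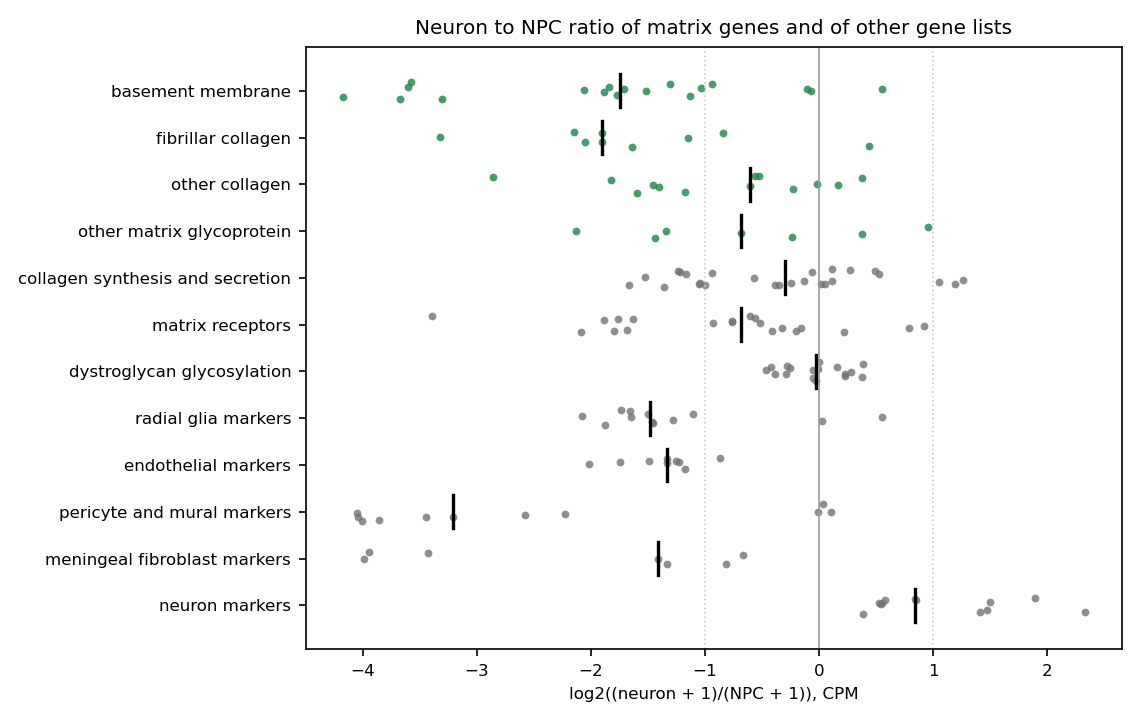
log2((neuron + 1)/(NPC + 1)) in CPM for each gene past the filter, 1 point per gene, with vertical bars at list medians and dotted lines at 2-fold. The basement membrane (median -1.74) and fibrillar (-1.90) genes spread widely. Their medians lie above that of the pericyte markers (-3.20). They lie below those of the radial glia (-1.48), meningeal fibroblast (-1.41) and endothelial markers (-1.33). The spreads of these lists overlap, and medians of scarce genes depend on the added 1 CPM and on the filter.

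Collagen IV, the network-forming collagen of basement membranes, was among the lowest in neurons relative to NPCs. Col4a1 had 11.5 CPM in neurons and 157.9 CPM in NPCs, 13.7-fold lower in neurons (12.1 to 15.6). Its partner Col4a2 had 9.53 CPM in neurons and 102.7 CPM in NPCs, 10.8-fold lower in neurons (9.38 to 12.4). The trimer contains both chains, and the intervals of their folds overlap only between 12.1 and 12.4. The X-linked pair Col4a5 and Col4a6, chains of specialised basement membranes, were less far apart. Col4a5 had 6.32 CPM in neurons and 24.02 CPM in NPCs (3.80-fold lower, 3.17 to 4.59), and Col4a6 had 1.27 and 4.63 CPM (3.64-fold lower, 2.42 to 5.66). The intervals of this second pair lie wholly below those of Col4a1 and Col4a2. The third pair was near silence, with Col4a4 at 11 reads in neurons and 24 in NPCs and Col4a3 at 1 and 12 reads (10.04-fold lower, 1.5 to 433.3). Per kilobase of coding sequence, Col4a1 stood at 1.23 times Col4a2 in neurons (1.03 to 1.49) and at 1.57 times in NPCs (1.5 to 1.65).

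Each of these 3 pairs lies side by side in the genome. The promoter windows of Col4a1 and Col4a2 are shown because the 2 genes were low together and start from one shared stretch. Each window runs from 250 bases before to 50 after the start in RefSeq on build GRCm38.p6, is printed 5′ to 3′ on its gene's own strand, and has in capitals the 78 bases that it shares with the other window on the opposite strand. Col4a1 is at chr8:11312777-11313076 on the minus strand and Col4a2 at chr8:11312555-11312854 on the plus strand.
Col4a1: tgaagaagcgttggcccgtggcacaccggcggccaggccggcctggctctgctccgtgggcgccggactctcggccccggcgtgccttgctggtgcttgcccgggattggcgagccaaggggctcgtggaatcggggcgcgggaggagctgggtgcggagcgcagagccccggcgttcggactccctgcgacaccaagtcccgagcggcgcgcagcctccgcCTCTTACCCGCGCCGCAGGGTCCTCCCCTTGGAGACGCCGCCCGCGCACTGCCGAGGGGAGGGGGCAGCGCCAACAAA
Col4a2: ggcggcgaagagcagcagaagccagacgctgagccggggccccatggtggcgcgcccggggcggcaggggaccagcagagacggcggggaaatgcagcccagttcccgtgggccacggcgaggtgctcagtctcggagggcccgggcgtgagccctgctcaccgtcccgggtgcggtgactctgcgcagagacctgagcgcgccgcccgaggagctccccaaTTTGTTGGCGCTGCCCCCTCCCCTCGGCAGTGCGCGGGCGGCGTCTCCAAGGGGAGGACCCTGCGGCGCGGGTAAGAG
The windows were 74.0% and 73.7% G or C, against a median of 52.7% over all 32851 windows of the table. The GC box GGGCGG, searched on both strands, occurred 1 time in the Col4a1 window and 3 times in that of Col4a2, and CCAAT 1 time in each. The windows of Col4a6 and Col4a5 do not overlap and lie 842 bases apart. Annotated exons of Col4a1 and Col4a2 share 22 bases, and whether reads there were assigned by strand is not given in the sources used here.

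Nidogens, which bridge laminin and collagen IV, differed from each other. Nid1 had 2.72 CPM in neurons, from 62 reads, and 66.1 CPM in NPCs, from 1784 reads. At 24.3-fold lower in neurons (18.9 to 31.8) it had the most negative log2 ratio of the 47 genes, -4.17. Nid2 had 2.33 CPM in neurons and 12.9 CPM in NPCs, 5.54-fold lower (4.14 to 7.55), although 8.96% of its annotated exon bases are shared with the gene Rtraf. Per length the nidogens were close together in neurons and far apart in NPCs. Nid1 stood at 1.32 times Nid2 in neurons (0.899 to 1.94) and 5.78 times in NPCs (5.15 to 6.50) per kilobase of coding sequence, and at 0.936 times in neurons and 4.10 times in NPCs per kilobase of transcript.

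Laminins are trimers of an alpha, a beta and a gamma chain, and the beta-1 gene was closer to equal than the alpha genes past the filter. The interval of the gamma-1 gene overlapped those of the alpha genes Lama1 and Lama2. Lamb1, the beta-1 chain, had 66.9 CPM in neurons and 72.03 CPM in NPCs, 1.08-fold lower (1.01 to 1.15). Lamc1, the gamma-1 chain of most laminins, had 58.1 CPM in neurons and 112.04 CPM in NPCs, 1.93-fold lower (1.81 to 2.06). Lamb2, a beta chain of pial, vascular and synaptic basement membranes, was at 9.04 CPM in neurons and 35.96 CPM in NPCs, 3.98-fold lower (3.42 to 4.65). The 4 alpha chains past the filter were all at least 2-fold lower in neurons. Lama5 had 13.7 CPM in neurons and 46.97 CPM in NPCs (3.43-fold, 3.03 to 3.89). Lama1, an alpha chain of early embryonic membranes, had 8.08 and 17.6 CPM (2.18-fold, 1.83 to 2.59), and Lama2 had 5.97 and 14.2 CPM (2.38-fold, 1.96 to 2.92). The vascular chain Lama4 had 1.27 CPM in neurons and 26.1 CPM in NPCs, 20.5-fold lower (14.2 to 30.8), so that its interval lies wholly above those of the other 3 alpha chains. Lamc3, a gamma chain whose human gene is mutated in malformations of the occipital cortex, had 4 reads in neurons and 359 in NPCs, or 0.176 and 13.3 CPM, 75.6-fold lower (29.4 to 279.7). The epithelial chains Lama3 and Lamb3 had 4 and 6 reads in neurons and 5 and 12 in NPCs, and no difference was detectable beyond counting error.

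The make-up of the laminin transcripts was not the same in both libraries. The 5 alpha chains summed to 2.99 CPM per kilobase of coding sequence in neurons and 12.4 in NPCs. The 3 beta chains summed to 13.9 in neurons and 19.9 in NPCs. In neurons Lamb1 and Lamc1 were level with each other, at a ratio of 1.01 (0.936 to 1.09), while in NPCs the ratio was 0.563 (0.532 to 0.597). Per kilobase of transcript these ratios were 1.52 and 0.847. Lamb1 exceeded Lamb2 7.26-fold in neurons (6.27 to 8.43) and 1.96-fold in NPCs (1.82 to 2.12) on the coding scale. Among alpha chains Lama5 was 5.25 times Lama4 in neurons (3.59 to 7.98) and 0.879 times in NPCs (0.801 to 0.965), again per coding length. For each of these 3 ratios the intervals of neurons and NPCs do not meet on the coding scale.

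**Figure D3:**
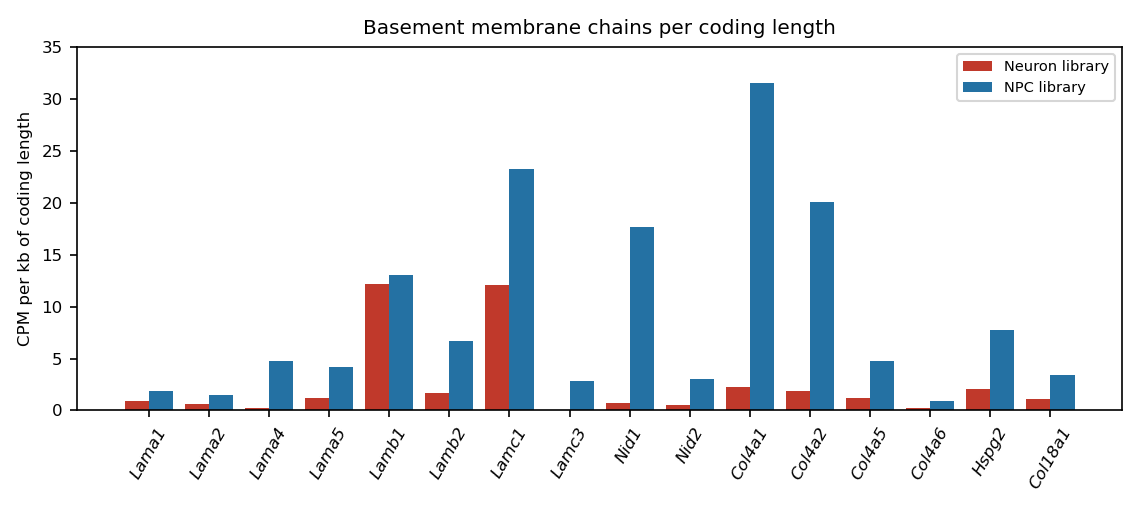
Level per kilobase of coding length (CPM per kb, linear axis from 0) of laminin, nidogen and collagen IV chains, perlecan (Hspg2) and Col18a1, with the neuron bar left of the NPC bar (1 library each, no error bars). Lamb1 and Lamc1 are the tallest neuron bars, at 12.2 and 12.1, while Col4a1 and Lamc1 are the tallest NPC bars, at 31.5 and 23.2, and Agrn at 99.9 in neurons and 104.96 in NPCs is left off for scale.

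The heparan sulphate proteoglycans of the basement membrane were unlike one another. Agrn encodes agrin, whose neuronal splice forms cluster acetylcholine receptors at the neuromuscular junction and whose other forms lie in basement membranes. It had the highest level of the 65 genes in both libraries, also per kilobase of coding sequence, at 609.6 CPM in neurons and 640.5 CPM in NPCs, a ratio of 0.952 (0.931 to 0.973). The gene-level values do not separate its splice forms. Hspg2, which encodes perlecan, had 27.6 CPM in neurons and 101.5 CPM in NPCs, 3.68-fold lower (3.37 to 4.02). Col18a1, a collagen with heparan sulphate chains and the source of endostatin, had 5.66 and 18.02 CPM (3.18-fold lower, 2.62 to 3.89). Its relative Col15a1 was the 1 basement membrane gene past the filter that was higher in neurons, at 1.93 CPM from 44 reads against 1.001 CPM from 27 reads in NPCs, 1.93-fold higher (1.17 to 3.24).

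The promoter windows of Nid1 and Agrn are shown as those of the genes with the most negative ratio and the highest level in the class. They are RefSeq windows on GRCm38.p6 of the same extent as above, on each gene's own strand, with GGGCGG and CCAAT on either strand in capitals. Nid1 is at chr13:13437352-13437651 on the plus strand and Agrn at chr4:156197439-156197738 on the minus strand. A second Agrn window in the table is not shown.
Nid1: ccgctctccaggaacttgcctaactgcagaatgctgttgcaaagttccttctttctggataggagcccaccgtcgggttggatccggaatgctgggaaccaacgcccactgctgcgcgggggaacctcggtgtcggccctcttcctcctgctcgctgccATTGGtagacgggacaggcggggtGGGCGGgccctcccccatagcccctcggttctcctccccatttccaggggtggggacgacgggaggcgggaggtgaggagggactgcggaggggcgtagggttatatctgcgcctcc
Agrn: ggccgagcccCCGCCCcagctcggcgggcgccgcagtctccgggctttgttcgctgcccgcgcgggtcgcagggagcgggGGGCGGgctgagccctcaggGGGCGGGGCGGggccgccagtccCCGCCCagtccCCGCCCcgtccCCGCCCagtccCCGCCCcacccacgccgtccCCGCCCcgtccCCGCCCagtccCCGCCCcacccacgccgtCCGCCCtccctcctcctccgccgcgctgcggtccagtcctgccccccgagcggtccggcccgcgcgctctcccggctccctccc
GGGCGG occurred 1 time in the Nid1 window and 12 times, some overlapping, in the Agrn window, and CCAAT 1 time and 0 times. The windows were 64.7% and 83.3% G or C. Of the 65 genes 48 had a window in the table, 55 windows in all. The median of these 55 was 60% G or C, against 52.7% over all windows. The motif counts that follow were not adjusted for this difference. GGGCGG occurred in 33 of the 55 and in 35.7% of all windows, CCAAT in 16 of the 55 and in 37.4% of all windows, and the TATA box TATAAA in 6 of the 55 and in 13.6% of all windows.

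A large share of the class total was Agrn. The 23 basement membrane genes summed to 843.3 CPM in neurons and 1470 CPM in NPCs, a ratio of 0.574 (0.564 to 0.584). Agrn made up 72.3% of this sum in neurons and 43.6% in NPCs. Without it the other 22 genes summed to 233.7 CPM in neurons and 829.4 CPM in NPCs, a ratio of 0.282 (0.273 to 0.290).

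**Figure D4:**
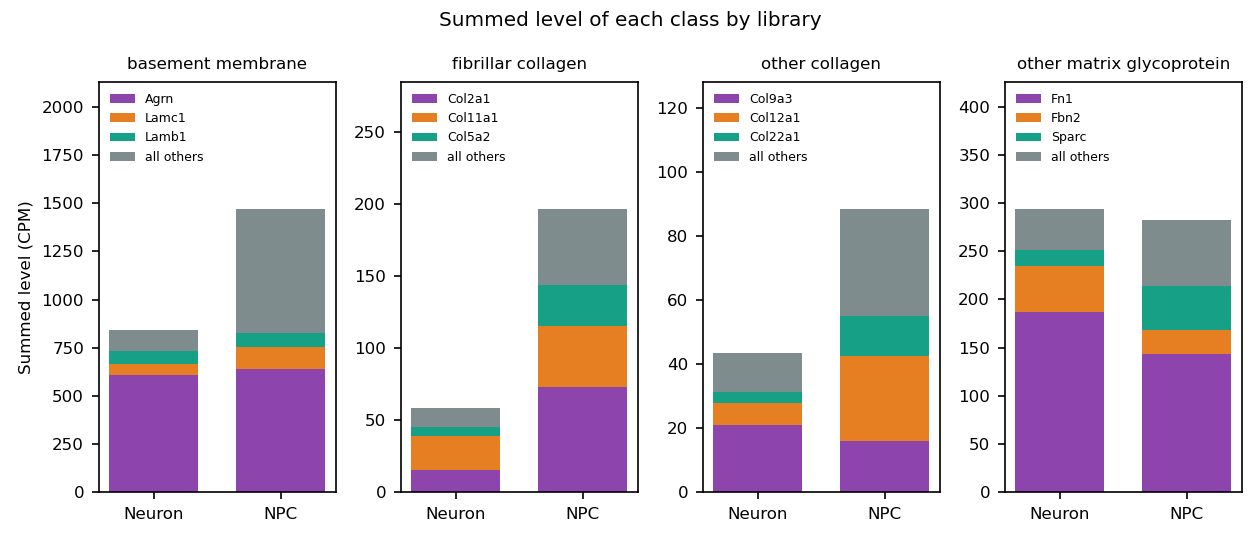
Summed level of each class in CPM (linear axes from 0, 1 panel per class with its own scale), with the neuron bar left of the NPC bar and 3 named genes set apart from the rest (1 library each, no error bars). Agrn fills a similar height in both basement membrane bars, of 843.3 CPM in neurons and 1470 CPM in NPCs, and Fn1 and Fbn2 are taller in neurons among the other matrix glycoproteins.

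Among fibrillar collagens, Col11a1 and Col2a1 had the highest levels per kilobase of coding sequence, at 4.27 and 3.54 CPM per kilobase in neurons and 7.81 and 16.4 in NPCs. The class summed to 58.8 CPM in neurons and 196.5 CPM in NPCs, a ratio of 0.299 (0.281 to 0.318). Col2a1, the main collagen of cartilage and also a gene of the embryonic neuroepithelium, had 15.8 CPM in neurons and 73.3 CPM in NPCs, 4.64-fold lower (4.14 to 5.20). Col5a1 and Col5a2, chains of the type V collagen that starts fibril assembly, had 4.21 and 6.15 CPM in neurons and 18.5 and 28.7 CPM in NPCs, 4.39-fold (3.52 to 5.52) and 4.66-fold (3.89 to 5.62) lower. These 3 genes thus lay at like folds with overlapping intervals. Col3a1, whose product is a known ligand of the receptor Gpr56 at the pial surface, had 18 reads in neurons and 457 in NPCs, or 0.790 and 16.9 CPM, 21.4-fold lower (13.4 to 36.5). It neighbours Col5a2 on chromosome 1, and the intervals of the 2 folds do not meet. The type I chains of bone, skin and fibroblasts had few reads in neurons, with Col1a2 at 0.527 CPM in neurons and 4.71 CPM in NPCs (8.93-fold lower, 4.94 to 17.8) and Col1a1 at 0.308 and 1.89 CPM (6.15-fold, 2.78 to 16.1). Col27a1 had 0.922 and 4.97 CPM (5.39-fold lower, 3.39 to 8.99).

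Type XI chains, which sit inside type II fibrils in cartilage, split. Col11a1 had 23.1 CPM in neurons and 42.3 CPM in NPCs, 1.83-fold lower (1.65 to 2.03). Col11a2 had 6.89 CPM in neurons and 4.82 CPM in NPCs, 1.43-fold higher (1.13 to 1.82). Per kilobase of coding sequence Col11a1 was 3.23 times Col11a2 in neurons (2.70 to 3.89) and 8.44 times in NPCs (7.03 to 10.2). Below the filter, Col5a3 had 0 reads in neurons and 12 in NPCs, and Col24a1 had 1 and 2 reads.

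Other collagens were a mixed class, with sums of 43.7 CPM in neurons and 88.6 CPM in NPCs, a ratio of 0.493 (0.457 to 0.531). Of the fibril-associated collagens, Col12a1, Col22a1, Col14a1 and Col16a1 were at least 2-fold lower in neurons. Col19a1 and Col20a1 of the same family, given below, were within 2-fold with 1 CPM added. Col12a1 had 6.80 CPM in neurons and 26.7 CPM in NPCs (3.92-fold, 3.29 to 4.69), and Col22a1 had 3.51 and 12.6 CPM (3.59-fold, 2.81 to 4.64). Col14a1 had 2.24 and 7.86 CPM (3.51-fold, 2.58 to 4.87), and Col16a1 had 0.790 and 3.74 CPM (4.74-fold, 2.85 to 8.32). Genes of type IX, which coats type II fibrils, were also within 2-fold. Col9a3 had 21.1 CPM in neurons and 15.98 CPM in NPCs, 1.32-fold higher (1.16 to 1.51), with 7.68% of its annotated exon bases shared with Tcfl5. Its partner chains Col9a2 (2.20 and 2.74 CPM) and Col9a1 (1.05 and 1.07 CPM) did not differ beyond counting error, with ratios of neuron to NPC of 0.80 (0.547 to 1.16) and 0.980 (0.546 to 1.74). Col9a3 made up 48.2% of the class sum in neurons and 18.04% in NPCs, and without it the class ratio was 0.312 (0.282 to 0.343).

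Collagen VI, the beaded filament of connective tissue, was scarce in neurons, with 0.793 CPM in neurons and 9.42 CPM in NPCs over its 6 genes. Col6a3 had 3 reads in neurons and 194 in NPCs, or 0.132 and 7.19 CPM, 54.4-fold lower (18.4 to 267.2). Col6a2 had 6 and 50 reads, or 0.264 and 1.85 CPM (7.03-fold lower, 3.02 to 20.1), and Col6a1 had 1 and 8 reads, with an interval that holds 1. Col6a4, Col6a5 and Col6a6 had 4, 3 and 1 reads in neurons and 0, 2 and 0 in NPCs. The other collagens past the filter had low levels in both libraries. The anchoring fibril gene Col7a1 had 1.27 CPM in neurons and 2.45 CPM in NPCs (1.92-fold lower, 1.22 to 3.09), and the transmembrane collagen Col25a1 had 0.834 and 1.71 CPM (2.04-fold lower, 1.17 to 3.70). Col19a1 had 0.439 and 1.07 CPM (2.45-fold lower, 1.16 to 5.63), and Col20a1 had 1.449 and 1.19 CPM, a ratio of 1.22 (0.728 to 2.05). With 1 CPM added, Col25a1 and Col19a1 were within 2-fold. Col28a1 had 5 reads in neurons and 19 in NPCs (3.20-fold lower, 1.16 to 11.0). Col10a1 and Col13a1 had 0 reads in both libraries, which allows up to 0.132 CPM in neurons and 0.111 CPM in NPCs. The other 4 genes of the class (Col8a1, Col8a2, Col17a1 and Col23a1) had at most 24 reads in a library and intervals that hold 1.

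The other matrix glycoproteins included the genes with the clearest higher level in neurons. Fbn2, the fibrillin of embryonic microfibrils, had 47.8 CPM in neurons and 24.1 CPM in NPCs, 1.98-fold higher (1.80 to 2.19). Its log2 ratio with 1 CPM added was 0.96, just inside 2-fold. The related Fbn1 had 19.1 and 22.8 CPM, 1.19-fold lower in neurons (1.05 to 1.35), and 20.3% of its annotated exon bases are shared with the gene model Gm9913. Per kilobase of coding sequence, Fbn2 stood at 2.47 times Fbn1 in neurons (2.20 to 2.76) and 1.04 times in NPCs (0.934 to 1.17). Fn1, which encodes fibronectin, a ligand of several integrins, had 187.2 CPM in neurons and 143.96 CPM in NPCs, 1.30-fold higher (1.24 to 1.36). Per kilobase of coding sequence it stood at 25.2 CPM in neurons, below Agrn alone among the 65 genes, and at 19.4 CPM in NPCs, below Agrn, Sparc, Col4a1, Lamc1 and Col4a2.

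The remaining glycoproteins were lower in neurons. Sparc, a collagen-binding protein that modulates adhesion, had 16.3 CPM in neurons and 45.9 CPM in NPCs, 2.82-fold lower (2.51 to 3.18). Fbln1 and Fbln2, fibulins that bind basement membranes and elastic fibres, had 21.2 and 1.89 CPM in neurons and 34.6 and 6.30 CPM in NPCs, 1.63-fold (1.46 to 1.83) and 3.34-fold (2.38 to 4.78) lower. Postn, which encodes periostin of collagen-rich tissue, had 7 reads in neurons and 127 in NPCs, or 0.308 and 4.71 CPM, 15.3-fold lower (7.22 to 38.9). Over the 7 genes the sums were 293.7 CPM in neurons and 282.4 CPM in NPCs. This ratio, 1.04 (1.01 to 1.08), rested on Fn1 and turned to 0.770 (0.731 to 0.811) without it, and to 0.993 when the libraries were scaled by total reads.

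Genes that were at least 8-fold lower in neurons by the plain ratio and had at least 1 CPM in a library were Lamc3, Col6a3, Nid1, Col3a1, Lama4, Postn, Col4a1, Col4a2 and Col1a2. They were singled out after their values were seen. Of 47 genes, 6 had a log2 ratio at or below the pericyte median of -3.20 and 21 at or below the radial glia median of -1.48. At or below the intermediate progenitor median of -1.54 were 20. The endothelial median was largely fixed by the filter, so no count is set against it. The added 1 CPM limits how negative the ratio of a scarce gene can be, so Col6a3 and Postn are not among the 6. The share of all genes at or below these medians was not computed, so these counts do not show anything particular to the matrix genes. Among the neighbouring pairs, Col6a2 and Col6a1 on chromosome 10 had ratios of neuron to NPC of 0.142 and 0.149, while Col9a1 and Col19a1 on chromosome 1 had 0.980 and 0.409.

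Enzymes and chaperones that make and secrete collagen were unlike one another. Of 33 such genes 32 were found and 26 passed the filter. In neurons 9 of the 26 were at least 2-fold lower and 3 at least 2-fold higher, with a median log2 ratio of -0.30. Of the 24 that passed in both libraries 8 were lower and 3 higher by this measure. Over all genes past the filter 6.73% were lower and 3.85% higher. Serpinh1, which encodes the collagen chaperone Hsp47, had 38.5 CPM in neurons and 112.5 CPM in NPCs, 2.93-fold lower (2.71 to 3.16). Fkbp10, a prolyl isomerase of the same compartment, had 1.14 and 5.78 CPM (5.07-fold lower, 3.33 to 8.0). Plod2, a lysyl hydroxylase, had 10.8 and 26.5 CPM (2.44-fold, 2.11 to 2.83), and the cross-linking lysyl oxidases Loxl1 and Loxl2 were 2.74-fold (2.34 to 3.23) and 2.73-fold (2.12 to 3.54) lower. The genes at least 2-fold higher in neurons were the procollagen N-proteinase genes Adamts2 (10.1 and 3.63 CPM, 2.78-fold, 2.18 to 3.56) and Adamts3 (144.4 and 62.6 CPM, 2.31-fold, 2.17 to 2.45) and the vesicle coat gene Sec24d (21.8 and 10.01 CPM, 2.18-fold, 1.88 to 2.54). Another N-proteinase gene, Adamts14, was below the filter with 13 reads in neurons and 26 in NPCs. Its ratio of neuron to NPC was 0.592 (0.279 to 1.19). Adamts3, whose product also cleaves reelin, and Sec24d were chosen after their values were seen. Reln and 7 other markers of Cajal-Retzius cells summed to 471.6 CPM in neurons and 113.8 CPM in NPCs, with 5 of the 8 at least 2-fold higher (2 of the 4 that passed in both libraries) and a median log2 ratio of 1.2. Reln itself had 434.2 CPM in neurons and 95.8 CPM in NPCs, Trp73 had 16.5 and 2.04, and Ebf3 had 9.48 and 12.6.

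Receptors for these ligands were lower in neurons in part. Of 22 receptor genes 20 passed the filter, with a median log2 ratio of -0.68. In neurons 7 were at least 2-fold lower (5 of the 15 that passed in both libraries) and 0 at least 2-fold higher. The shares over all genes past the filter were 6.73% lower and 3.85% higher. The collagen IV receptor gene Itga1 had 0.834 CPM in neurons and 18.3 CPM in NPCs, 21.9-fold lower (13.9 to 36.7), and the fibrillar collagen receptor genes Itga11 and Ddr2 were 19.0-fold (7.17 to 71.3) and 4.31-fold (3.31 to 5.69) lower. The fibronectin receptor gene Itga5 had 1.36 and 9.01 CPM (6.62-fold lower, 4.54 to 9.96), and Itgav and Sdc2 were 3.4-fold (2.96 to 3.92) and 4.31-fold (3.26 to 5.78) lower. Genes of laminin-binding integrins went both ways. Itga6 and Itgb1 had 46.7 and 168.1 CPM in neurons and 62.4 and 240.6 CPM in NPCs, 1.34-fold and 1.43-fold lower in neurons. Itga7, below the filter, had 2 reads in neurons and 20 in NPCs. Itgb4 and Itga3 lay higher in neurons, within 2-fold on the log2 scale with 1 CPM added. Itgb4 had 2.94 CPM in neurons and 1.07 CPM in NPCs (2.74-fold higher by the plain ratio, 1.74 to 4.39), and Itga3 had 13.96 and 7.67 CPM (1.82-fold higher, 1.52 to 2.18), both chosen after their values were seen. Gpr56 and Dag1, named here for their ligands and not by rank, were closer to equal. Gpr56 had 341.5 CPM in neurons and 578.2 CPM in NPCs (1.69-fold lower, 1.65 to 1.74). Dag1, the gene of the laminin, agrin and perlecan receptor dystroglycan, had 107.7 and 124.2 CPM.

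Genes that serve the making of the laminin-binding sugar of dystroglycan, its precursors included, were near equal throughout. All 17 passed the filter, 0 were at least 2-fold apart, and the list had a median log2 ratio of -0.02. Few of all genes past the filter were that far apart either, 6.73% lower and 3.85% higher in neurons. Pomt2, an enzyme that starts the sugar chain, had 26.8 CPM in neurons and 36.1 CPM in NPCs, 1.35-fold lower (1.22 to 1.49). Large, which extends the sugar chain, had 100.03 and 76.6 CPM, 1.31-fold higher (1.23 to 1.39).

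Further marker lists were read for the other cells that each sort could hold. Microglia and macrophage markers were at least 2-fold higher in neurons for 10 of 11 genes (7 of the 7 that passed in both libraries), with sums of 140.1 CPM in neurons and 32.2 CPM in NPCs, led by Csf1r, Cx3cr1 and C1qb (46.8, 26.4 and 14.9 CPM in neurons, and 10.9, 6.86 and 3.34 CPM in NPCs). Intermediate progenitor markers were at least 2-fold lower in neurons for 5 of 6 genes, led by Eomes, Neurog2 and Insm1 (353.6, 170.0 and 228.8 CPM in neurons, and 1013, 502.1 and 282.8 CPM in NPCs). In the oligodendrocyte lineage list Cspg4, which pericytes also express, had 1.01 CPM in neurons and 31.2 CPM in NPCs. No choroid plexus marker of 6 reached 1 CPM, and the 3 with the highest sum over both libraries, Aqp1, Ttr and Clic6, had 0.483, 0 and 0 CPM in neurons and 0.927, 0.556 and 0.148 CPM in NPCs. Blood cell markers summed to 59.2 CPM in neurons and 62.5 CPM in NPCs, nearly all of it Hba-a1 (56.9 and 60.7), followed by Alas2 (1.36 and 1.52) and Hbb-y (0.878 and 0.222).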

How the data were processed

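RNA from 1 neuron and 1 NPC library was measured. Per the submitters' processing notes, CASAVA 1.9, TopHat 1.2.0, SAMtools 0.1.18, edgeR and build mm9 were used, with no role given. The annotation, strandedness and treatment of multiply aligned reads are not stated there or per the labels. The deposited signal values were multiples of one step per library (1.12798 in neurons, 0.952726 in NPCs), and division gave whole reads within 0.05 for 99.6% and 99.9% of values. Values under 0.01 were taken as 0. CPM were formed by dividing both libraries by the mean of their summed values (25698104), which keeps the authors' scaling. A count test needs replicates to estimate spread, so none was run. Scalings came from edgeR 4.0.16 and DESeq2 1.42.0 in R 4.3.3, and the calculations were tested on simulated data. Coding and transcript lengths are those of GENCODE M21 (GRCm38), taken from the transcript with the longest coding sequence. Intervals used scipy 1.17.1. The named genes are members at 1 CPM or with an interval that leaves out 1, up to 6 per pathway list by absolute log2 ratio, and the 3 most abundant of each marker list with those at 0 in both libraries. The members, lists and alternatives were chosen with earlier results of these data known. Older symbols or RefSeq synonyms were used for some list genes, and Mia3 was not found. Some genes that this rule names are not reported here.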

Additional observations from a re-analysis of the deposited data

How the results depend on the processing

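The count of genes at least 2-fold lower in neurons, 30, was 19 with 5 CPM added in place of 1 and 11 at a 4-fold threshold. It lay between 20 and 34 under the other 10 alternatives, of which no added value and the filter in both libraries (21) were chosen after seeing the data. A stricter filter also leaves fewer genes to compare, as with the count of 20 at 10 CPM. Shares over all genes were computed only for the filter in both libraries (5.77%) and for no filter (4.19%). For the other alternatives the counts do not show whether the excess over all genes changed. The count of higher genes, 0, was 1 at 1.5-fold (Fbn2) and 0 elsewhere. Scaling by total reads moved the plain ratios by -0.067 on the log2 scale, upper quartiles by -0.038, TMM by -0.0038 and the median of ratios by 0.0013. The basement membrane ratio, 0.574, was 0.548 and 0.559 with the first 2 scalings and 0.282 without Agrn. The fibrillar ratio was 0.349 without Col2a1 and the other collagen ratio 0.312 without Col9a3. The ratio of other glycoproteins turned to 0.993 with total reads and to 0.770 without Fn1. With 5 CPM added, genes at least 2-fold lower were 2 for collagen synthesis, 0 for endothelium and 3 for meningeal fibroblasts, and genes at least 2-fold higher were 1 for collagen synthesis, 6 for microglia and 2 for Cajal-Retzius cells. With 0.1 CPM added, 1 matrix receptor was at least 2-fold higher. Of 188 ratios of single genes under other scalings, 185 stayed within their counting intervals and 3 did not. Low genes set the limit of what was detectable, since 3 reads equal 0.132 CPM in neurons and 0.111 CPM in NPCs. No paired analysis was possible because each group has 1 library.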
